A study of Mus musculus with 27 samples.

Results

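The libraries described here are those of mouse embryonic stem cells collected 4 h and 2 h after the start of a peroxide pulse, 3 at each time, which makes 6 of the 27 libraries of the series. They were taken by label: the treated 4 h group was set against the treated 2 h group, genes were joined by Ensembl identifier, and the 12193 genes that reached 1 FPKM in at least 3 of the 6 libraries were tested out of 38352 in the tables. FPKM, the unit of all levels below, scales the sequenced fragments of a gene by transcript length and by the mapped fragments of its library. All cells were E14Tg2a, a single feeder-free embryonic stem cell line, kept in the naive state on gelatin by LIF (leukemia inhibitory factor) and the 2i inhibitor pair, in medium with serum. Cells of both groups had received 500 µM hydrogen peroxide (H2O2) for 30 min and then spent medium from untreated cultures. They differed in time since that pulse, 4 h and 2 h, so time since the change of medium and time in culture moved with it and cannot be told apart from time since peroxide. No group of the series is labelled as given the medium change alone. The whole series holds 9 groups of 3 biological replicates, and the untreated 0 h, treated 0.5 h and treated 6 h groups are used below only to give the levels before and after the step.

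Several well-studied programs respond to an oxidant on this time scale. Immediate early genes such as Fos and Egr1 need no new protein for their induction, and their short-lived mRNAs are usually lost again within hours. The tumor suppressor p53 is stabilised after DNA damage and then activates genes of cell cycle arrest, DNA repair and cell death, together with Mdm2, the ligase that marks p53 for degradation. NRF2, released from its inhibitor Keap1 by oxidants, activates antioxidant genes. Naive embryonic stem cells are held in their state by a network of transcription factors around Oct4 (Pou5f1), Sox2 and Nanog, and p53 is known to bind and repress Nanog in mouse embryonic stem cells.

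The 6 libraries were of similar size but 1 stood apart. Absolute depth is unknown from FPKM; the steps between low values placed relative depth at 0.974 to 1.01 times that of 2 h replicate 2. The count of genes at 1 FPKM or more was 11861 to 12048. Across the tested genes, the 4 h libraries correlated with one another at r = 0.993 to 0.994, and 2 h replicates 2 and 3 at 0.994 (Pearson, log2 scale, a description). For 2 h replicate 1 the correlation with the other 2 h libraries was 0.965 and 0.962. That library carried a trend with transcript GC content of 0.244 log2 units per 10 points of GC against the mean of all 27 libraries. The trend was 0.121, 0.040 and 0.087 in 4 h replicates 1, 2 and 3, and −0.0072 and −0.046 in 2 h replicates 2 and 3. The fit was therefore repeated without 2 h replicate 1. List counts are given from both fits where they differ, and a named gene has its value from the repeat where that ended or made its call. Some results are also given after each library was corrected for GC content and transcript length.

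Between 2 h and 4 h, targets of p53 rose, most pluripotency and mitotic genes that moved were lower, and immediate early genes moved in both directions. In limma, 2501 genes (20.5% of those tested) passed an adjusted p below 0.05, the threshold for every call below. Of these, 1266 were higher at 4 h (10.4%) and 1235 lower (10.1%). These shares are the ones to set beside each list count below. Without 2 h replicate 1 there were 2359 calls (19.3%), 1120 higher (9.19%) and 1239 lower (10.2%), and 1973 genes were called in the same direction both ways. The median difference over all genes was −0.01 on the log2(FPKM + 1) scale, on which all differences below are given. A difference of 2-fold or more (1 on the log2 scale) was found for 127 higher and 69 lower genes, of which 121 and 67 kept their call without 2 h replicate 1. All 3 libraries of the 4 h group lay above all 3 of the 2 h group for 17.2% of genes and below them for 16.0%.

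**Figure D1:**
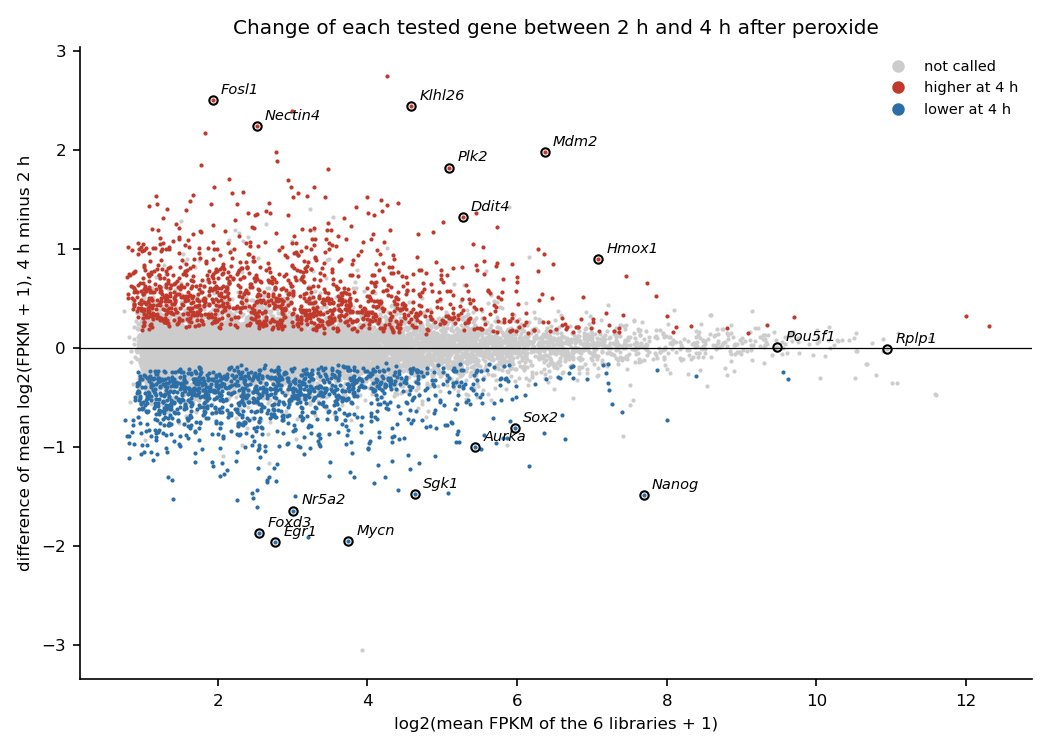
Each dot is 1 of 12193 tested genes. The x axis gives the log2 of the mean FPKM of the 6 libraries plus 1, and the y axis the difference of mean log2(FPKM + 1), 4 h minus 2 h. Genes called higher at 4 h (red, 1266) and lower at 4 h (blue, 1235) lie on both sides of 0, with Fosl1 (2.50), Klhl26 (2.44) and Mdm2 (1.98) among the highest named genes and Egr1 (−1.96) and Mycn (−1.95) among the lowest.

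Targets of p53 formed the list with the largest share of members higher at 4 h. Of 42 listed genes 39 were tested, and 30 were higher and 2 lower, with a median difference of 0.83 (all genes −0.01). The counts were 25 higher and 2 lower without 2 h replicate 1 (median 0.77), and 31 higher and 3 lower without it after the GC and length correction. In 32 of the 39 members every 4 h library lay above every 2 h library. Over all genes tested the same held for 17.2%, and 10.4% were called higher.

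Mdm2 (ENSMUSG00000020184, chromosome 10, 117688875 to 117710758 on GRCm38), the ubiquitin ligase that targets p53 for degradation, had the largest rise of the list and stood at 125, 130.2 and 135 FPKM at 4 h, against 25.5, 34.5 and 38.2 FPKM at 2 h. The groups lay far apart (log2 difference 1.98, SE 0.17, adjusted p = 1.09e-08; 1.82 without 2 h replicate 1). Ppm1d, the phosphatase Wip1 that reverses p53 and checkpoint phosphorylation, was measured at 21.9, 21.5 and 21.5 FPKM at 4 h, against 9.70, 8.97 and 9.95 FPKM at 2 h (log2 difference 1.10, SE 0.07, adjusted p = 1.12e-10). Ccng1, cyclin G1, which recruits a phosphatase to Mdm2, rose less, with 154, 169 and 164 FPKM at 4 h, against 110.4, 134 and 137 FPKM at 2 h (log2 difference 0.36, SE 0.12, adjusted p = 0.034), and its call was lost without 2 h replicate 1 (0.26, adjusted p = 0.166). Fbxw7, the ubiquitin ligase subunit that recognises Myc and cyclin E, was higher by 1.10 (SE 0.09).

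Among genes known for a role in the cell cycle, Cdkn1a, Plk2, Btg2 and Gtse1 were higher and Sfn was lower. Cdkn1a (ENSMUSG00000023067, chromosome 17, 29090976 to 29100727), which encodes p21, the inhibitor of cyclin-dependent kinases, reached 60.1, 52.6 and 56.5 FPKM at 4 h, against 31.2, 24.5 and 24.6 FPKM at 2 h. The lowest 4 h library exceeded the highest 2 h one (log2 difference 1.05, SE 0.09, adjusted p = 3.21e-08; 1.17 without 2 h replicate 1). Plk2 (chromosome 13, 110395046 to 110400844), a Polo-like kinase with roles in centriole duplication and the stress response, gave 49.0, 54.3 and 53.2 FPKM at 4 h, against 11.5, 14.6 and 16.5 FPKM at 2 h. The 2 groups were separated by a wide gap (log2 difference 1.82, SE 0.14, adjusted p = 4.58e-09). Btg2, an antiproliferative factor that promotes mRNA deadenylation, was at 59.9, 59.0 and 61.3 FPKM at 4 h, against 31.7, 33.2 and 31.7 FPKM at 2 h (log2 difference 0.88, SE 0.05, adjusted p = 5.35e-11). Gtse1, a microtubule-bound protein that restrains p53, was higher by 0.30 (SE 0.05). Sfn, which encodes 14-3-3 sigma, went the other way, at 8.75, 10.5 and 9.13 FPKM at 4 h, against 16.8, 13.1 and 11.9 FPKM at 2 h (log2 difference −0.51, SE 0.15, adjusted p = 0.0168). Its difference without 2 h replicate 1, −0.37, was not called (adjusted p = 0.103).

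Several death effectors rose at the level of both the mitochondrial and the receptor pathway. Pmaip1, which encodes the BH3-only protein Noxa, was at 17.5, 17.4 and 16.9 FPKM at 4 h, against 5.01, 6.81 and 7.49 FPKM at 2 h (log2 difference 1.31, SE 0.17, adjusted p = 4.35e-06). Bbc3, which encodes the BH3-only protein Puma, had 24.1, 21.7 and 25.2 FPKM at 4 h, against 19.6, 11.4 and 10.95 FPKM at 2 h. The 2 h library nearest to the 4 h group was replicate 1, and the difference was 0.76 with it (SE 0.218, adjusted p = 0.0151) and 1.01 without it. Among death receptors, Tnfrsf10b, the TRAIL receptor, showed 12.3, 12.3 and 12.8 FPKM at 4 h, against 4.73, 5.71 and 5.37 FPKM at 2 h (log2 difference 1.11, SE 0.08, adjusted p = 2.84e-09), and Fas rose above 1 FPKM in all 4 h libraries, with 1.72, 1.44 and 1.54 FPKM at 4 h, against 0.534, 0.148 and 0.185 FPKM at 2 h. The Fas difference of 1.00 (SE 0.11) understates its change, since the added constant of 1 weighs on low levels. Perp (0.87), a membrane protein of desmosomes and apoptosis, and Pidd1 (0.90), the scaffold of the caspase-2 complex, rose too. Apaf1, the core of the apoptosome (0.83), was called with all libraries but not without 2 h replicate 1 (0.55, adjusted p = 0.118). Bax, the pore-forming effector, was not called (log2 difference 0.08, 95% interval −0.42 to 0.58, adjusted p = 0.904). Its level in 2 h replicate 1 (246 FPKM) lay above all others, and the difference was 0.37, adjusted p = 0.304 without that library. Of 11 tested members of the Bcl2 family list, Pmaip1, Bbc3 and Bid (0.35), a BH3-only protein that links the death receptors to mitochondria, were higher. Bcl2l1, which encodes the survival protein Bcl-xL, was the only one lower, at 9.74, 9.04 and 9.81 FPKM at 4 h, against 14.4, 14.02 and 13.7 FPKM at 2 h (log2 difference −0.51, SE 0.07, adjusted p = 5.63e-06).

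Repair and metabolic targets were mixed. Polk, the translesion polymerase kappa, was at 9.80, 11.5 and 11.4 FPKM at 4 h, against 2.43, 3.52 and 3.51 FPKM at 2 h (log2 difference 1.53, SE 0.21, adjusted p = 9.26e-06). Ercc5, the XPG endonuclease of nucleotide excision repair, was higher by 0.94 (SE 0.15). The damage sensor genes Xpc (log2 difference 0.23, 95% interval 0.01 to 0.45, adjusted p = 0.139) and Ddb2 (log2 difference 0.12, 95% interval −0.13 to 0.37, adjusted p = 0.606) were not called. Of 20 translesion and UV repair genes, 4 were higher, Polk, Rev1 (1.19), Ercc5 and Ercc8 (0.30), and 2 lower, the polymerase iota gene Poli (−0.49) and Xpa (−0.41). The shares were 20% higher and 10% lower, against 10.4% and 10.1% of all genes tested, so the lower share was near that of all genes. The counts without 2 h replicate 1 were 3 higher and 4 lower, and Rev1, the scaffold of the translesion polymerases, was at 0.88, adjusted p = 0.0657. Ddit4, an inhibitor of the growth kinase mTORC1 also known as Redd1, stood at 55.3, 51.1 and 56.2 FPKM at 4 h, against 20.3, 22.4 and 20.6 FPKM at 2 h (log2 difference 1.32, SE 0.07, adjusted p = 8.12e-12). Sesn2, a sestrin that couples stress and leucine levels to mTORC1, was at 104, 109 and 109 FPKM at 4 h, against 57.9, 54.3 and 53.5 FPKM at 2 h (log2 difference 0.95, SE 0.05, adjusted p = 5.12e-11). The other sestrin on the list, Sesn1, was at 3.39, 3.34 and 3.38 FPKM at 4 h, against 3.27, 5.66 and 5.44 FPKM at 2 h. With all libraries its difference was −0.38 and not called (adjusted p = 0.119), and without 2 h replicate 1 it was lower (−0.58, adjusted p = 0.0104). Tigar, a bisphosphatase that lowers glycolytic flux, was lower by a small amount in both fits (−0.24 and −0.31). Trp53inp1, a cofactor of p53 and autophagy protein, was higher by 1.02 (SE 0.25), and Gpx1, the glutathione peroxidase that removes peroxide, was not called (log2 difference −0.05, 95% interval −0.42 to 0.33, adjusted p = 0.929).

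**Figure D2:**
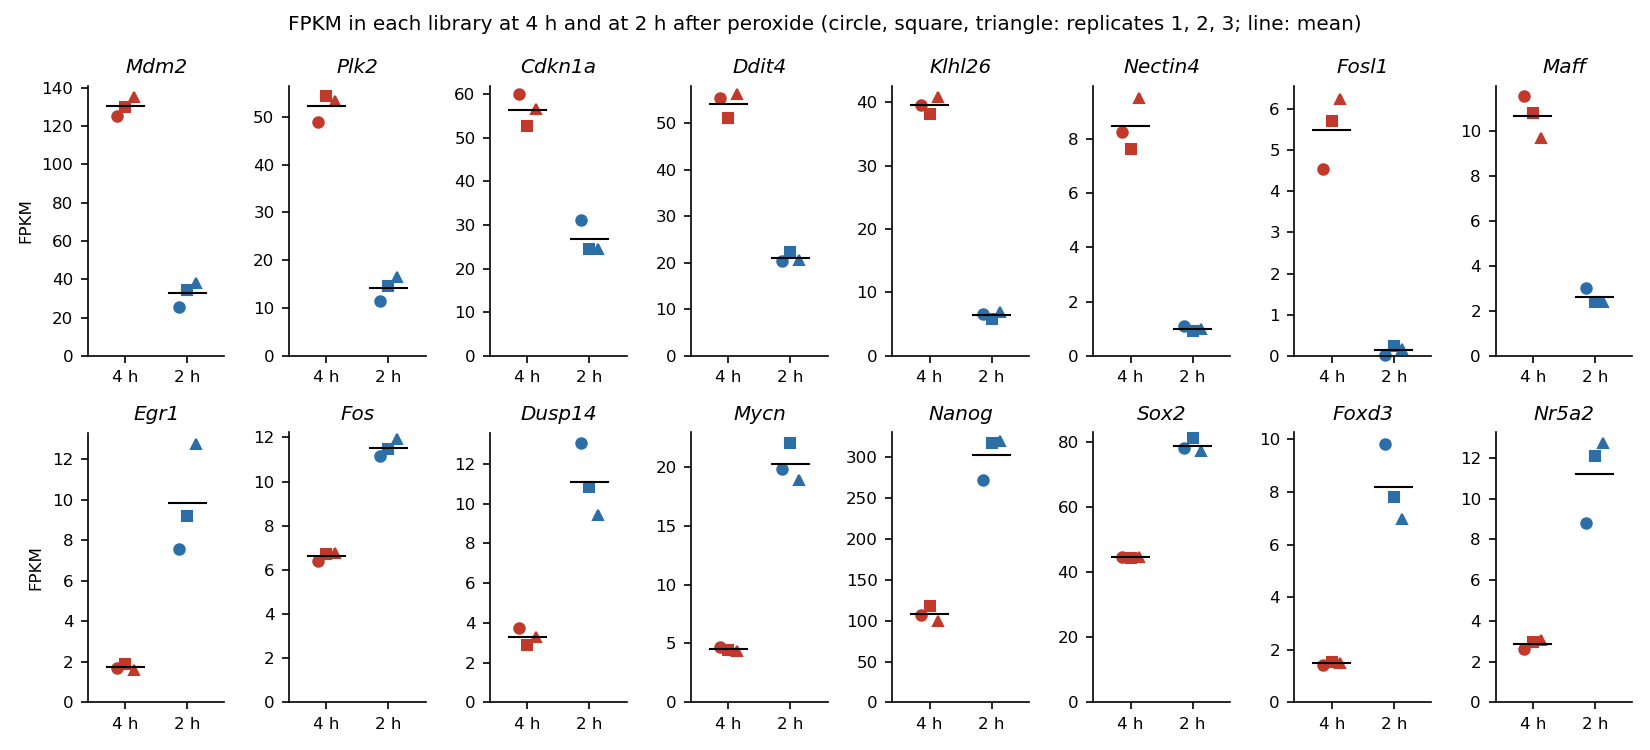
FPKM of 16 genes (y axes, each from 0) in each library at 4 h (red, left) and at 2 h (blue, right); circles, squares and triangles mark replicates 1, 2 and 3 and the line their mean. In all 16 the 3 libraries of one time lie on one side of the 3 of the other, as for Mdm2 (125, 130.2 and 135 at 4 h, 25.5, 34.5 and 38.2 at 2 h) and Nanog (106, 118 and 99.5 at 4 h, 272, 318 and 319 at 2 h).

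Promoter sequences are shown for 6 of the genes that rose, because p53 and the stress-activated CREB and ATF factors bind defined letters. Only stretches that hold a match were shown, so the presence of a match in all 6 is not a result. The letters were searched on both strands in the 250 bases before each start site in RefSeq, build GRCm38.p6, and a gene counted if any of its listed starts held a match. A p53 decamer, the unit of which a p53 site holds a pair, was found in 9 of 31 tested p53 targets with an entry (29.0%), namely Aen, Bax, Ccng1, Cdkn1a, Ei24, Mdm2, Polk, Ppm1d and Sesn1. The share was 7.11% of the 8548 tested genes with an entry and 8.20% of all 27025. The cAMP response element TGACGTCA was found in 4 of the 31, Btg2, Epha2, Plk2 and Ppm1d (12.9%, against 3.21% of tested genes), in Maff among 20 immediate early genes, and in Foxd3, which fell, among 10 core pluripotency genes. Its core TGACG, which the full element contains, was in 12 of 31 p53 targets (38.7%) and 9 of 20 immediate early genes (45.0%), against 31.4% of tested genes. Over all genes, the p53 decamer was in 7.80% of those higher and 5.98% of those lower at 4 h, and TGACGTCA in 3.54% and 2.88%. Each stretch has 120 bases, 5′ to 3′ on the strand of the gene, and capitals mark the p53 decamer in the first 3 and TGACGTCA in the last 3.
Mdm2, chr10:117710880-117710999, minus strand: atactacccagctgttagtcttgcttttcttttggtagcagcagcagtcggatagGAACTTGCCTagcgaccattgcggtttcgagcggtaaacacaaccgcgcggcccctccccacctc
Cdkn1a, chr17:29090851-29090970, plus strand: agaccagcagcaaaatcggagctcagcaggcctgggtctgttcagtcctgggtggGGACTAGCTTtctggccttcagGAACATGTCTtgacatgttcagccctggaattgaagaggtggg
Ppm1d, chr11:85311067-85311186, plus strand: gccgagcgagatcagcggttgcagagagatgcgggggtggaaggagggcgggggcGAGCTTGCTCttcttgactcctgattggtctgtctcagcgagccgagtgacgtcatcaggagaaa
Plk2, chr13:110394924-110395043, plus strand: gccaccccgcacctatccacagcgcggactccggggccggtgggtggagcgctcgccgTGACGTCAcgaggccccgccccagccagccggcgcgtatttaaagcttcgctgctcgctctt
Btg2, chr1:134079258-134079377, minus strand: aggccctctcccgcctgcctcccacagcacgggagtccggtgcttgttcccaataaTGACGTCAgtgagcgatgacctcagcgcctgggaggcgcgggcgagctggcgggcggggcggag
Maff, chr15:79347400-79347519, plus strand: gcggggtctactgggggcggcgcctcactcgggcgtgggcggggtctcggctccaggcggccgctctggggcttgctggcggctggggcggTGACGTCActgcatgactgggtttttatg
The Mdm2 decamer begins 186 bases before its listed start. The Cdkn1a stretch holds 2 decamers, at 73 and 51 bases before the start shown, which is 1 of 2 listed for that gene. The Ppm1d stretch holds its decamer at 132 bases and, nearer the start and in lower case, a TGACGTCA as well. In Plk2, Btg2 and Maff the element lies 62, 166 and 29 bases before the start shown, which for Maff is 1 of 3 listed. These are matches of letters and not measured binding, and a window without a match says nothing of sites elsewhere, such as in introns.

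Immediate early genes moved in both directions. Of 27 tested, 7 were higher and 13 lower (median −0.24); without 2 h replicate 1 there were 8 higher and 10 lower. Egr1, a zinc finger factor induced by growth signals, was at 1.71, 1.88 and 1.62 FPKM at 4 h, against 7.56, 9.21 and 12.8 FPKM at 2 h. This was the largest fall of the named genes, and the 4 h libraries still lay above the 0.161 ± 0.107 FPKM of untreated cells (SD, n = 3; log2 difference −1.96, SE 0.13, adjusted p = 2.50e-10). Fos, the founding AP-1 factor, was at 6.39, 6.73 and 6.75 FPKM at 4 h, against 11.1, 11.5 and 11.9 FPKM at 2 h (log2 difference −0.72, SE 0.13, adjusted p = 0.000202), against 0.935 ± 0.317 FPKM in untreated cells. Rhob, a short-lived small GTPase, fell to 2.92, 3.30 and 2.47 FPKM at 4 h, against 9.53, 8.71 and 8.39 at 2 h (log2 difference −1.35, SE 0.10, adjusted p = 1.78e-09). Gadd45b, a stress sensor upstream of p38 and JNK (−1.18), Klf10 (−0.99), the TGF-beta inducible Krüppel-like factor, and Ccn2 (−1.30), a matricellular growth factor, were lower too. The lower calls of Junb (−0.65) and Jund (−0.57) were lost without 2 h replicate 1 (−0.47 and −0.38, adjusted p = 0.101 and 0.217).

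A smaller set of early genes was higher at 4 h. Fosl1 (ENSMUSG00000024912, chromosome 19, 5447547 to 5455946), the AP-1 member Fra-1 and itself a target of Fos-containing AP-1, was at 4.53, 5.70 and 6.24 FPKM at 4 h, against 0.0309, 0.240 and 0.166 FPKM at 2 h. It was near 0 in every 2 h library, and its difference was the largest rise of the named genes (log2 difference 2.50, SE 0.12, adjusted p = 5.32e-12). Maff, a small Maf factor that pairs with AP-1 and NRF2 type factors, was at 11.5, 10.8 and 9.70 FPKM at 4 h, against 3.01, 2.41 and 2.40 FPKM at 2 h (log2 difference 1.70, SE 0.12, adjusted p = 7.95e-10). Its relative Mafk was higher by 0.67 (SE 0.09). Ccn1, a matricellular protein gene, showed 12.4, 9.95 and 10.8 FPKM at 4 h, against 5.89, 5.66 and 6.21 FPKM at 2 h (log2 difference 0.80, SE 0.09, adjusted p = 6.95e-07). Its 4 h libraries were near the 11.6 ± 0.407 FPKM of untreated cells. Nr4a1, an orphan nuclear receptor, rose by 0.62 (SE 0.08). Jun and Atf3, both AP-1 family members, were not called. Jun was at 6.04, 6.58 and 6.36 FPKM at 4 h, against 7.34, 7.16 and 8.02 FPKM at 2 h (log2 difference −0.22, 95% interval −0.40 to −0.03, adjusted p = 0.0927). Atf3 was at 10.8, 9.56 and 9.76 FPKM at 4 h, against 9.76, 8.63 and 9.46 FPKM at 2 h (log2 difference 0.10, 95% interval −0.10 to 0.31, adjusted p = 0.568). Atf3 libraries of the 2 times overlapped, while those of Jun did not.

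Negative regulators of ERK signalling also split. Of 17 tested feedback genes 5 were higher and 4 lower (3 higher and 4 lower without 2 h replicate 1). Dusp14, a dual-specificity phosphatase, was at 3.75, 2.88 and 3.28 FPKM at 4 h, against 13.1, 10.8 and 9.46 FPKM at 2 h (log2 difference −1.49, SE 0.11, adjusted p = 3.40e-09). Dusp1, the immediate early phosphatase of p38 and JNK, was at 8.15, 8.19 and 8.78 FPKM at 4 h, against 14.9, 14.1 and 15.9 FPKM at 2 h (log2 difference −0.77, SE 0.06, adjusted p = 2.87e-09). Against these, the nuclear phosphatase gene Dusp2 reached 2.23, 1.61 and 1.98 FPKM at 4 h, against 0.519, 0.415 and 0.439 FPKM at 2 h (log2 difference 1.01, SE 0.09, adjusted p = 2.37e-08). Phlda1, a pleckstrin-domain protein, rose by 0.82 (SE 0.11). The Sprouty gene Spry2 was lower (−0.35), while Spry4 was not called (log2 difference 0.28, 95% interval 0.05 to 0.51, adjusted p = 0.0801).

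**Figure D3:**
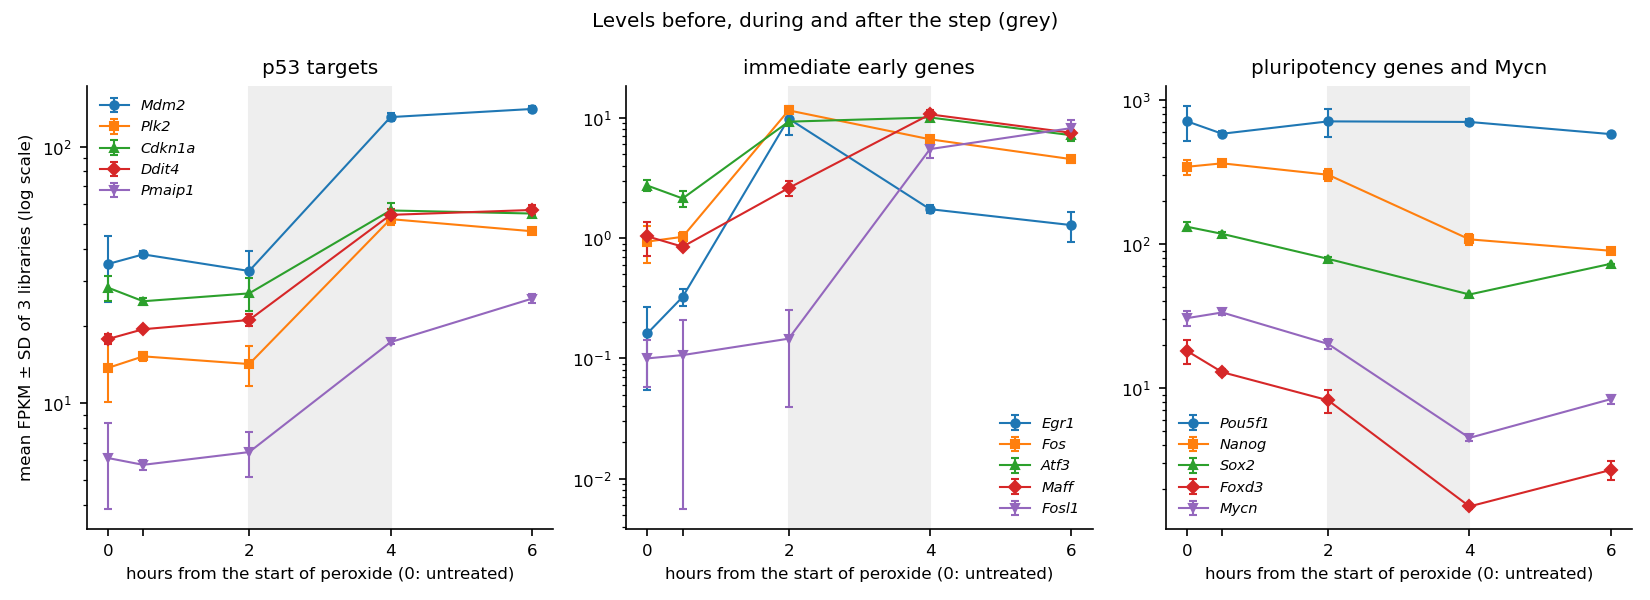
Mean FPKM ± SD of 3 libraries (log scale) at 0 h (untreated), 0.5 h, 2 h, 4 h and 6 h from the start of peroxide, with the step from 2 h to 4 h in grey. The 5 p53 targets stay near their untreated level until 2 h and are higher at 4 h. Egr1 and Fos are highest at 2 h, Maff is highest at 4 h and Fosl1 at 6 h. Nanog, Sox2, Foxd3 and Mycn are lower at 4 h than at 2 h, and Pou5f1 is at a similar level (705 FPKM at 4 h, 712 FPKM at 2 h).

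Of 15 core pluripotency genes 9 were lower at 4 h and 1 higher, with a median of −0.35 (the same counts, median −0.43, without 2 h replicate 1). Foxd3 (chromosome 4, 99656299 to 99658622), a forkhead factor needed to maintain embryonic stem cells, was at 1.44, 1.55 and 1.51 FPKM at 4 h, against 9.84, 7.80 and 6.98 FPKM at 2 h. It had the largest fall of the list and was already below the 18.1 ± 3.43 FPKM of untreated cells at 2 h (log2 difference −1.87, SE 0.13, adjusted p = 9.31e-10). Nanog (chromosome 6, 122707489 to 122714633), the homeodomain factor of self-renewal, was at 106, 118 and 99.5 FPKM at 4 h, against 272, 318 and 319 FPKM at 2 h (log2 difference −1.48, SE 0.08, adjusted p = 2.47e-11). Untreated replicates 1, 2 and 3 had 371, 366 and 296 FPKM. Untreated replicate 3 stood apart from its group in GC trend (0.282) and ribosomal protein shift (0.719), like 2 h replicate 1. Sall4, a zinc finger partner of Oct4 and Nanog, was at 14.5, 15.9 and 14.7 FPKM at 4 h, against 32.9, 36.1 and 34.9 FPKM at 2 h (log2 difference −1.15, SE 0.07, adjusted p = 9.52e-11). Sox2, the DNA-binding partner of Oct4, was at 44.8, 44.4 and 44.7 FPKM at 4 h, against 78.2, 81.2 and 77.3 FPKM at 2 h with close values within each time (log2 difference −0.81, SE 0.06, adjusted p = 6.72e-10). Gdf3 (−0.70), a TGF-beta family ligand, Utf1 (−0.67), a chromatin factor, L1td1 (−0.65), an RNA-binding protein, Tdgf1 (−0.35), the Nodal co-receptor Cripto, and Dppa2 (−0.33) completed the members that fell. The Utf1 call was lost without 2 h replicate 1 (−0.43, adjusted p = 0.207). Lin28a, a blocker of let-7 maturation, was gained (−0.41, adjusted p = 0.0148, against −0.31 with all libraries).

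Pou5f1 and 3 other core genes were not called in either fit. Pou5f1, which encodes Oct4 and has many processed copies, was at 731, 675 and 709.8 FPKM at 4 h, against 896, 620.2 and 619.6 FPKM at 2 h (log2 difference 0.01, 95% interval −0.31 to 0.33, adjusted p = 0.986). The libraries overlapped, with 2 h replicate 1 the highest of the 6. Without that library the difference was 0.19, adjusted p = 0.446. Dppa5a (0.05) and Dppa4 (0.03), 2 markers of undifferentiated cells, and Zfp281 (−0.29), a zinc finger factor of the exit from the naive state, were the others. Nr0b1 (Dax1), an orphan nuclear receptor, was the member that rose, with 75.2, 70.2 and 73.6 FPKM at 4 h, against 59.4, 50.5 and 51.1 FPKM at 2 h (log2 difference 0.44, SE 0.09, adjusted p = 0.000675).

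The naive circuitry changed in part. Of 22 naive genes 9 were lower and 2 higher (median −0.26). There were 1 higher and 9 lower without 2 h replicate 1, with a median of −0.51, and after the GC and length correction without that library there were 2 higher and 15 lower. Nr5a2 (chromosome 1, 136842571 to 136960448), a nuclear receptor that can bind the Oct4 promoter, was at 2.64, 2.97 and 3.05 FPKM at 4 h, against 8.82, 12.1 and 12.7 FPKM at 2 h (log2 difference −1.64, SE 0.17, adjusted p = 1.99e-07). Klf2, a Krüppel-like factor whose protein MEK inhibition stabilises, was at 45.2, 40.6 and 41.2 FPKM at 4 h, against 125, 90.0 and 82.1 FPKM at 2 h (log2 difference −1.19, SE 0.18, adjusted p = 4.32e-05). Fgf4, the growth factor through which embryonic stem cells signal to ERK, gave 14.01, 14.2 and 13.8 FPKM at 4 h, against 27.3, 32.6 and 32.2 FPKM at 2 h (log2 difference −1.08, SE 0.08, adjusted p = 3.87e-09). Prdm14, a repressor of FGF signalling and DNA methylation, was lower (−1.07, SE 0.14). Zfp42 (−0.73), also known as Rex1, Gbx2 (−0.67) and the LIF pathway members Lifr (−0.66) and Socs3 (−0.73) fell less. Klf4, at 37.0, 39.2 and 40.03 FPKM at 4 h, against 37.8, 48.8 and 46.1 FPKM at 2 h, was not called (log2 difference −0.18, 95% interval −0.40 to 0.04, adjusted p = 0.297), nor were Esrrb (0.13), Klf5 (0.08), Tbx3 (−0.17) and Tfcp2l1 (−0.17). Stat3, the transcription factor that LIF activates, was higher with all libraries (log2 difference 0.36, SE 0.13, adjusted p = 0.046) but not without 2 h replicate 1 (0.22, adjusted p = 0.253).

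Genes of the next, formative and primed stage were lower or not called. Of 12 tested, 6 were lower and 0 higher in both fits (median −0.39, and −0.46 without 2 h replicate 1). At an unadjusted p below 0.05 in limma 0 were higher and 7 lower. Zic2 (chromosome 14, 122475435 to 122479852), a zinc finger factor of the primed state, was at 2.07, 1.99 and 1.61 FPKM at 4 h, against 6.71, 7.64 and 7.39 FPKM at 2 h (log2 difference −1.52, SE 0.12, adjusted p = 4.59e-09). Zic5 was lower (−1.29, SE 0.14), and so were Tcf15, a helix-loop-helix factor that primes cells for differentiation (−1.33), and the HMG-box gene Sox4 (−0.83). The de novo methyltransferase genes Dnmt3a and Dnmt3b and the FGF-responsive Etv4 and Etv5 were not called, with differences from −0.09 (Dnmt3b) to 0.00 (Etv4).

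Mycn (chromosome 12, 12936093 to 12941914), the Myc family member of embryonic cells, was at 4.74, 4.41 and 4.34 FPKM at 4 h, against 19.8, 22.0 and 18.8 FPKM at 2 h and the groups did not overlap (log2 difference −1.95, SE 0.08, adjusted p = 2.03e-13). Of 12 tested Myc network genes 5 were lower and 2 higher. Beside Mycn, the lower members included Mycl (−0.99) and Myc (−0.30, not called at −0.22 without 2 h replicate 1). Repressors that compete with Myc for its partner Max went both ways. Mxd3 (−0.77) and Mxi1 (−0.35) were lower, and Mxd1 (0.31) and Mnt (0.27) were higher. Mxd1 was not called without 2 h replicate 1 (0.26, adjusted p = 0.0858), and the list then had 1 higher and 4 lower. Of 16 Nodal, BMP and Id genes 7 were lower and 2 higher (2 higher and 6 lower without 2 h replicate 1). Bmp4, the ligand that sustains Id genes in these cells, was at 1.94, 1.98 and 1.64 FPKM at 4 h, against 8.73, 6.96 and 7.33 FPKM at 2 h (log2 difference −1.600, SE 0.12, adjusted p = 1.36e-09). Its targets Smad6 (−0.89) and Id3 (−0.92) and the Nodal antagonists Lefty1 (−0.93) and Lefty2 (−0.61) were lower too. The higher members were Acvr1b (0.70), the activin receptor kinase, and Smad7 (0.27), an inhibitor of TGF-beta signalling. Of 7 Wnt targets and feedback genes 2 were lower, Tcf7l1 (−0.39), a repressor of Wnt targets, and Axin2 (−0.36), a feedback inhibitor (0 higher and 3 lower without 2 h replicate 1).

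**Figure D4:**
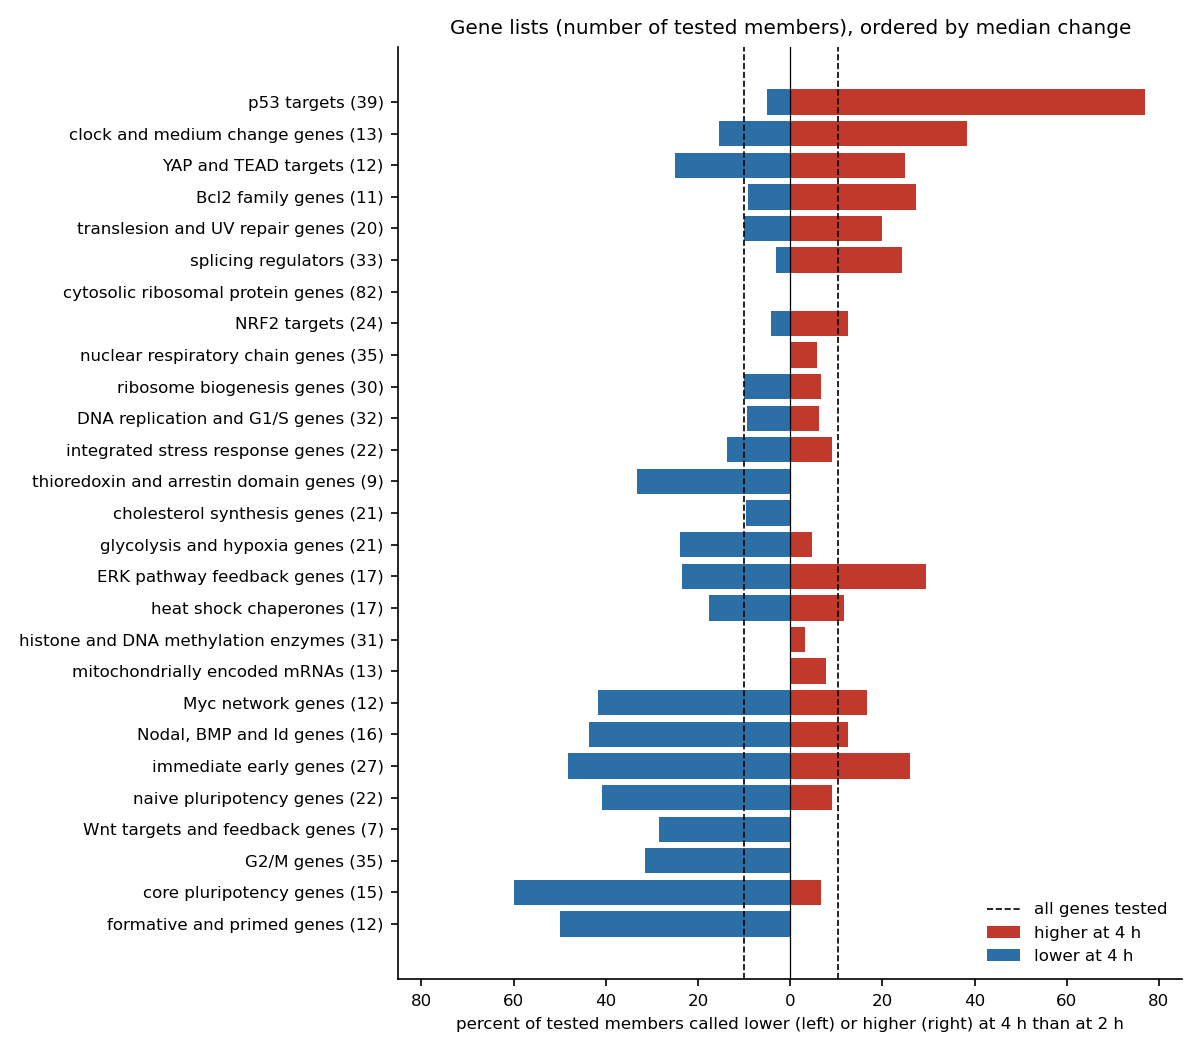
Percent of the tested members of 27 gene lists called higher (red, to the right) or lower (blue, to the left) at 4 h than at 2 h, with the number of tested members in brackets and lists ordered by median difference. Dashed lines give the share of all tested genes (10.4% higher, 10.1% lower). The p53 targets (30 of 39 higher) and the core pluripotency genes (9 of 15 lower) reach furthest, and the 82 cytosolic ribosomal protein genes have no call.

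Few antioxidant genes were called in this interval. Of 24 NRF2 targets 3 were higher and 1 lower in both fits, shares of 12.5% and 4.17% near those of all genes. After the GC and length correction 5 were higher and 1 lower, beside 1708 and 1845 of all 12186 genes in that fit. Leaving out 2 h replicate 1 as well gave 4 higher and 1 lower. Hmox1 (chromosome 8, 75093621 to 75100589), heme oxygenase 1, was at 178, 167 and 182 FPKM at 4 h, against 98.8, 89.5 and 92.5 FPKM at 2 h, with no overlap between the times (log2 difference 0.90, SE 0.07, adjusted p = 1.38e-09). Sqstm1, the autophagy receptor p62 that also binds Keap1, was at 64.2, 60.7 and 64.5 FPKM at 4 h, against 52.7, 42.0 and 39.8 FPKM at 2 h (log2 difference 0.49, SE 0.09, adjusted p = 0.000509). Ephx1, the microsomal epoxide hydrolase, was higher by 0.32 (SE 0.06). Srxn1, sulfiredoxin, which repairs oxidised peroxiredoxins, was slightly lower (10.9, 10.3 and 11.9 FPKM at 4 h, against 11.8, 13.3 and 13.2 FPKM at 2 h; log2 difference −0.19, SE 0.07, adjusted p = 0.0483). The classic targets Nqo1 (−0.07), Gclm (−0.08) and Txnrd1 (0.08) were not called, nor was Gclc (log2 difference 0.43, 95% interval 0.08 to 0.78, adjusted p = 0.0782). The peroxide-removing enzyme genes Prdx1 (0.00) and Cat (0.02) were not called either.

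Txnip, the inhibitor of thioredoxin and of glucose uptake, was among the genes with the clearest falls. It stood at 10.4, 11.1 and 9.90 FPKM at 4 h, against 26.1, 31.8 and 32.4 FPKM at 2 h, and all 4 h libraries lay below all 2 h ones (log2 difference −1.43, SE 0.10, adjusted p = 1.38e-09). The 2 h level was itself below the 60.01 ± 10.7 FPKM of untreated cells. Its relatives Arrdc4 (−0.64) and Arrdc2 (−0.54), which are arrestin domain genes like Txnip, fell with it, which made 3 of 9 tested members of that list lower and 0 higher. Arrdc4 and Txnip are both known as targets of the glucose-sensing factor MondoA. Of 21 glycolysis and hypoxia genes, 5 were lower and 1 higher (1 higher and 6 lower without 2 h replicate 1), led by the hypoxia target Ankrd37 (−0.70), hexokinase 2 (Hk2, −0.61) and the glucose transporter gene Slc2a1, which was at 27.9, 28.8 and 28.8 FPKM at 4 h, against 44.0, 42.6 and 41.4 FPKM at 2 h (log2 difference −0.57, SE 0.05, adjusted p = 6.76e-08).

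The integrated stress and heat shock responses moved at single genes. Members called higher and lower made up 9.09% and 13.6% in the first and 11.8% and 17.6% in the second. Over all genes tested these shares were 10.4% and 10.1%. Of 22 integrated stress response genes 2 were higher, Sesn2 and Ddit3 (0.33), which encodes the factor CHOP, and 3 lower. Chac1, a glutathione-degrading enzyme, was lower at 2.31, 1.86 and 1.47 FPKM at 4 h, against 6.07, 3.65 and 3.72 FPKM at 2 h (log2 difference −0.91, SE 0.15, adjusted p = 7.62e-05). The other two were Atf4 (−0.30), the central factor of that response, and Ppp1r15a (−0.24). Without 2 h replicate 1, Atf4 (−0.21, adjusted p = 0.0996) and Ppp1r15a (−0.16, adjusted p = 0.152) were not called, and the list had 3 higher and 1 lower. Of 17 heat shock genes 2 were higher and 3 lower. Hspa1b, of the inducible chaperone Hsp70, was at 3.37, 2.92 and 3.25 FPKM at 4 h, against 6.91, 5.64 and 6.31 FPKM at 2 h (log2 difference −0.80, SE 0.17, adjusted p = 0.00126). Its near-identical neighbor Hspa1a was not called (log2 difference −0.51, 95% interval −0.92 to −0.10, adjusted p = 0.0732), and reads of the pair can be assigned to either. Dnajb1, the Hsp40 partner of Hsp70, rose, with 42.1, 38.6 and 42.2 FPKM at 4 h, against 29.2, 27.4 and 27.2 FPKM at 2 h (log2 difference 0.54, SE 0.06, adjusted p = 2.56e-07), while Dnaja1 was lower (−0.44).

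Mitotic genes were lower or not called. Of 35 G2/M genes 11 were lower and 0 higher (median −0.30), and 16 had every 4 h library below every 2 h one. Over all genes tested 10.1% were called lower, and 16.0% had every 4 h library below every 2 h one. The lower count was 15 without 2 h replicate 1 and 22 after the GC and length correction without that library, with 0 higher in both. At an unadjusted p below 0.05 in limma 0 were higher and 18 lower with all libraries. Aurka, the kinase of spindle poles, was at 28.0, 29.1 and 26.8 FPKM at 4 h, against 55.1, 57.1 and 58.7 FPKM at 2 h (log2 difference −0.999, SE 0.05, adjusted p = 1.64e-11). Plk1, the mitotic Polo-like kinase, was at 38.4, 40.7 and 35.6 FPKM at 4 h, against 75.5, 71.7 and 70.5 FPKM at 2 h without overlap (log2 difference −0.91, SE 0.07, adjusted p = 1.67e-09). Kif2c (−0.56), a microtubule-depolymerising kinesin, Fzr1 (−0.51), which activates the anaphase-promoting complex in G1, Tpx2 (−0.47), the activator of Aurka, and Cdc20 (−0.42) also fell, while Birc5 (−0.05), Bub1 (−0.06) and Top2a (−0.18) were not called. In bulk RNA, fewer cells in mitosis and less of these mRNAs per cell cannot be told apart, and the same holds for each gene group here. Of 32 DNA replication and G1/S genes 2 were higher, the licensing factor Cdt1 (0.26) and E2f1 (0.28), and 3 lower, E2f2 (−0.58), Ccne1 (−0.51), the G1/S cyclin E1, and Slbp (−0.39), the binding protein of histone mRNA (2 higher and 6 lower without 2 h replicate 1). With all libraries the shares of that list, 6.25% higher and 9.4% lower, were near those of all genes (10.4% and 10.1%). The E2f1 call was lost after the GC and length correction (0.27, adjusted p = 0.115).

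YAP and TEAD target genes had 3 members higher and 3 lower out of 12. That was 25% in each direction, against 10.4% higher and 10.1% lower over all genes tested. Amotl2, an inhibitor of YAP, was at 8.06, 8.55 and 8.82 FPKM at 4 h, against 18.4, 27.004 and 25.2 FPKM at 2 h (log2 difference −1.36, SE 0.17, adjusted p = 2.90e-06). Ajuba, a scaffold that restrains the Hippo kinases, was lower (−1.08, SE 0.14). Ccn1 rose and Ccn2 fell, as given above, and both are textbook YAP targets. Of 13 clock and medium change genes 5 were higher and 2 lower (4 higher and 2 lower without 2 h replicate 1). With all libraries the shares of that list were 38.5% and 15.4%. Tef, a PAR-domain clock output factor, was at 5.87, 6.40 and 6.26 FPKM at 4 h, against 2.23, 3.27 and 3.29 FPKM at 2 h (log2 difference 0.88, SE 0.14, adjusted p = 4.64e-05). Bhlhe40 (0.65) and Nr1d1 (0.56), 2 clock repressors, were also higher. Sgk1, the serum and glucocorticoid induced kinase, was at 11.8, 12.6 and 11.8 FPKM at 4 h, against 29.1, 39.8 and 37.5 FPKM at 2 h (log2 difference −1.47, SE 0.12, adjusted p = 6.74e-09).

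Among 33 splicing regulators 8 were higher and 1 lower (6 higher and 1 lower without 2 h replicate 1). With all libraries the shares were 24.2% and 3.03%, against 10.4% and 10.1% of all genes tested. Rsrp1, whose product is rich in arginine and serine, led with 68.8, 67.1 and 68.6 FPKM at 4 h, against 37.3, 42.5 and 46.1 FPKM at 2 h (log2 difference 0.69, SE 0.09, adjusted p = 1.10e-05). The splicing kinase genes Clk1 (0.26), Clk2 (0.38), Clk3 (0.43) and Clk4 (0.49) were all higher, and so was Srsf5 (0.52), an SR protein, with 138, 138 and 137 FPKM at 4 h, against 88.3, 96.7 and 103 FPKM at 2 h. Srsf3, another SR protein, was the member that was lower (−0.36).

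With all libraries, housekeeping groups had few calls, and their values depended on 2 h replicate 1. None of 82 cytosolic ribosomal protein genes was called in limma (0 higher and 0 lower at an unadjusted p below 0.05), and their median was 0.05 with all libraries and 0.29 without 2 h replicate 1. In the fit without 2 h replicate 1 all 82 differences lay above 0, from 0.07 to 0.55. That library held these mRNAs 0.607 above the mean of all libraries (log2 scale), the 4 h libraries 0.0981 to 0.253 above it, and 2 h replicates 2 and 3 0.113 and 0.119 below it. Rplp1, of the ribosomal stalk, was at 2061.1, 1793.1 and 1938.7 FPKM at 4 h, against 2890.8, 1611.6 and 1562.8 FPKM at 2 h (log2 difference −0.01, 95% interval −0.52 to 0.50, adjusted p = 0.991). After the GC and length correction without that library, 22 of the 82 were higher and 0 lower, and these genes have many processed copies. Nuclear respiratory chain genes had 2 of 35 higher, with a median of 0.04 (0.22 without 2 h replicate 1). Ribosome biogenesis genes had 2 of 30 higher and 3 lower (1 higher and 3 lower without 2 h replicate 1). With all libraries these shares, 6.67% and 10%, were near or below those of all genes (10.4% and 10.1%). Mitochondrially encoded mRNAs had 1 of 13 higher with all libraries and 0 without that one. Of 31 histone and DNA methylation enzymes Suv39h1, the histone H3 lysine methyltransferase of heterochromatin, was the only one called with all libraries (6.08, 5.76 and 5.99 FPKM at 4 h, against 3.28, 3.10 and 3.63 FPKM at 2 h; log2 difference 0.68, SE 0.08, adjusted p = 2.52e-06). Without 2 h replicate 1 the demethylase gene Kdm3a was called too, as lower (−0.67).

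**Figure D5:**
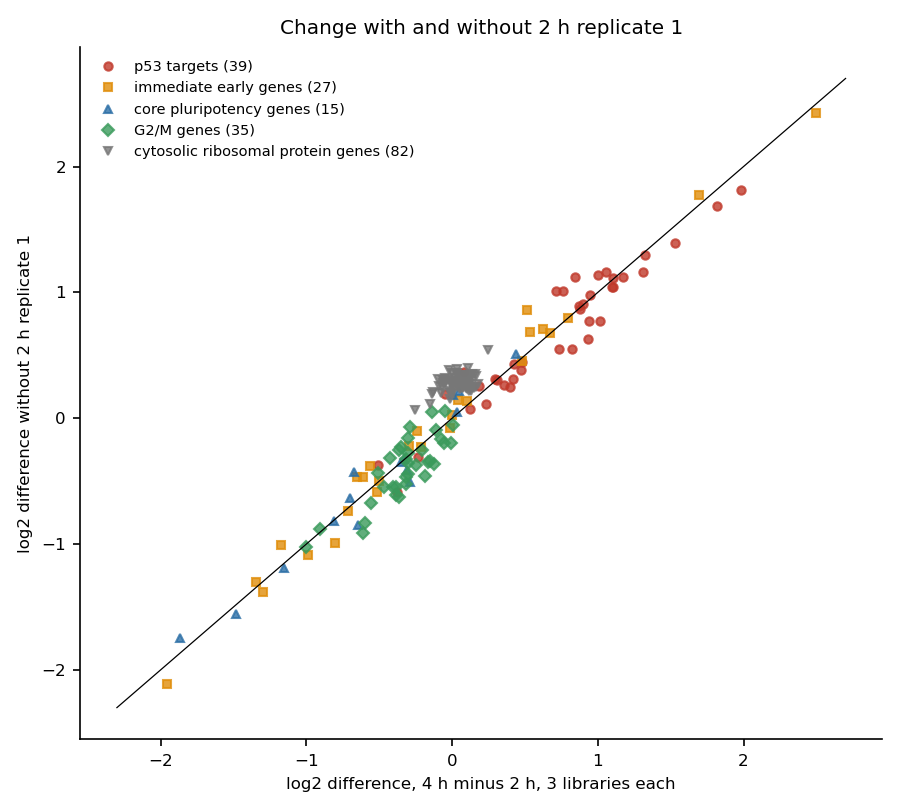
Difference of mean log2(FPKM + 1), 4 h minus 2 h, of the members of 5 lists with 3 libraries at each time (x axis) and without 2 h replicate 1 (y axis); the line marks equal values. The p53 targets, immediate early genes, core pluripotency genes and G2/M genes lie along the line, and the ribosomal protein genes lie above it (median 0.05 with that library, 0.29 without it).

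Markers of other cell types were low in most lists but not in all. Of 14 genes of the 2-cell-like state, 11 reached 1 FPKM in a 4 h library and 12 in a 2 h library. Of 10 trophectoderm genes 5 did so at each time. In the remaining lists most members stayed below 1 FPKM at 4 h. The markers of embryonic stem cells were high at both times (Pou5f1 675 to 731 FPKM at 4 h and 620 to 896 at 2 h; Zfp42 185 to 196 and 306 to 328). The 12 primitive streak genes summed to 4.08 to 4.65 FPKM at 4 h and 5.44 to 6.59 at 2 h, and the 13 primitive endoderm genes to 17.4 to 17.9 and 13.6 to 20.4. The 10 neuroectoderm genes summed to 66.6 to 67.6 FPKM at 4 h and 76.8 to 93.4 at 2 h, most of it Tubb3, and the 10 fibroblast genes to 3.57 to 3.96 and 4.32 to 4.81. The 10 trophectoderm genes summed to 27.6 to 29.7 FPKM at 4 h and 35.8 to 39.9 at 2 h, and the 14 genes of the 2-cell-like state to 89.3 to 118 and 94.2 to 118. The 31 hepatocyte genes summed to 218 to 219 FPKM at 4 h and 166 to 220 at 2 h, mostly through Ass1, which many cell types express, and the 10 astrocyte genes to 13.7 to 14.7 and 12.4 to 17.7. Eomes, a T-box factor of streak and trophoblast, was at 0.896, 1.17 and 0.895 FPKM at 4 h, against 2.73, 2.63 and 2.66 FPKM at 2 h (log2 difference −0.89, SE 0.09, adjusted p = 2.74e-07). Tfap2c, a trophectoderm factor, was lower (−0.72), and none of the 5 tested primitive endoderm genes was called. Neurod1, a neuronal helix-loop-helix factor, was an exception, with 11.7, 11.8 and 11.2 FPKM at 4 h, against 2.95, 3.16 and 3.68 FPKM at 2 h (log2 difference 1.57, SE 0.10, adjusted p = 2.93e-10), while Sox1 (−0.61) and Nes (−0.37) were lower. Alb, which defines hepatocytes, was at 0.0607 FPKM or less in all 6 libraries, and 9 of 31 hepatocyte genes were at 0 in all 6. The astrocyte genes Gfap and Lcn2 were at most 0.363 and 0.0540 FPKM at 4 h. At 2 h they reached 2.05 and 2.01 FPKM and were uneven between replicates. The part of such RNA in other results was not tested. The 2 astrocyte genes that passed the filter went the other way (0.26 and 0.53), and 1 of them was called higher.

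Several of the largest movers belong to none of the lists. Klhl26 (ENSMUSG00000055707, chromosome 8, 70450219 to 70476968), a kelch-like family gene, was at 39.5, 38.1 and 40.8 FPKM at 4 h, against 6.60, 5.85 and 6.97 FPKM at 2 h, and was the gene with the smallest adjusted p (log2 difference 2.44, SE 0.08, adjusted p = 1.98e-14). Nectin4, an adhesion molecule of epithelia, was at 8.26, 7.64 and 9.52 FPKM at 4 h, against 1.11, 0.902 and 0.990 FPKM at 2 h (log2 difference 2.24, SE 0.09, adjusted p = 2.03e-13). Zfp750, a zinc finger factor of epidermal differentiation, was at 10.2, 10.1 and 9.43 FPKM at 4 h, against 1.63, 1.79 and 1.87 FPKM at 2 h (log2 difference 1.98, SE 0.10, adjusted p = 1.64e-11). At 2 h these 3 genes stood near their untreated levels, which were 6.21 ± 0.840, 1.06 ± 0.173 and 2.16 ± 0.553 FPKM (SD, n = 3). Tsku, a secreted leucine-rich proteoglycan, was at 9.89, 9.53 and 10.3 FPKM at 4 h, against 2.32, 1.599 and 1.98 FPKM at 2 h (log2 difference 1.89, SE 0.11, adjusted p = 5.98e-11). Tas1r1, a subunit of the umami taste receptor, rose by 1.71 (SE 0.10). Sp6, an Sp family factor, was uneven, with 14.5, 9.66 and 12.5 FPKM at 4 h, against 0.301, 2.07 and 2.86 FPKM at 2 h (log2 difference 2.39, SE 0.49, adjusted p = 0.00103; 1.93 without 2 h replicate 1). Rtl10, a retrotransposon-derived Gag-like gene, was at 13.5, 18.1 and 16.7 FPKM at 4 h, against 1.84, 5.14 and 5.51 FPKM at 2 h (log2 difference 1.81, SE 0.36, adjusted p = 0.000853), and lost its call without 2 h replicate 1 once GC content and length were corrected (1.30, adjusted p = 0.0659). Among the falls, Prss35, a secreted serine protease-like gene, was at 1.29, 1.70 and 1.38 FPKM at 4 h, against 5.38, 6.86 and 6.08 FPKM at 2 h (log2 difference −1.53, SE 0.12, adjusted p = 6.69e-09).

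Levels at 6 h are given for some of these genes as a description, with no test. At 6 h, Mdm2 was at 140.2 ± 3.63 FPKM and Plk2 at 46.8 ± 0.954 (SD, n = 3), beside 4 h means of 130.4 and 52.2, while Fas was at 4.28 ± 0.251 and Klhl26 at 74.3 ± 0.714, above their 4 h means of 1.57 and 39.5. Nanog was at 89.8 ± 0.106 FPKM at 6 h, and Prdm14 at 2.24 ± 0.145, below their 4 h means of 108 and 4.74. Sox2 (72.9 ± 0.320 at 6 h, 44.6 at 4 h), Ccn2 (10.7 ± 0.677 and 2.704) and Amotl2 (29.9 ± 1.76 and 8.48) were higher at 6 h than at 4 h.

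The called genes differed in structure. Genes lower at 4 h by 2-fold or more had a median of 3 exons and a gene length of 7145 bases, and those higher by 2-fold or more had 5 exons and 12268 bases, against 7 exons and 17899 bases for genes not called (GENCODE M21, longest transcript). Over all calls the medians were 7 exons and 19572 bases for higher genes and 5 exons and 14439 bases for lower genes. Gene length changed order without 2 h replicate 1, with 16613 bases for higher and 17148 bases for lower genes. The exon medians stayed at 7 and 5. The libraries also carried a trend with transcript length, in log2 units per log10 of length against the mean of all 27 libraries. It was −0.553 in 2 h replicate 1, 0.031 and 0.043 in 2 h replicates 2 and 3, and −0.231 to −0.039 at 4 h. The part of that trend in these medians was not tested. Median transcript GC content was 52.4% in higher and 49.8% in lower genes, and 49.6% in genes not called. Without 2 h replicate 1 it was 53.2% and 48.8%, a wider gap, and the GC trends of the libraries given above differ between the times in the same direction in that comparison.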

How the data were processed

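FPKM values per gene and library were made and deposited by the authors. Poly(A) RNA was sequenced from a stranded kit with paired ends, per the labels' protocols, and cutadapt, FastQC, HISAT2, StringTie, edgeR and the mm10 build are named in the submitters' processing notes, without versions or roles. No read counts were used, so absolute depth is unknown. From the deposited FPKM, log2(FPKM + 1) was computed for genes reaching 1 FPKM in 3 or more of the 6 libraries. limma 3.58.1 with a mean-variance trend (R 4.3.3) fitted 1 mean for each of the 9 groups over all 27 libraries, and the contrast was 4 h minus 2 h. A call means a Benjamini-Hochberg adjusted p below 0.05 over all 12193 genes, and every adjusted p in the text is from this test, its repeat without 2 h replicate 1 or, where stated, the same fits after the GC and length correction. Tables were checked to hold the same genes, and the fit was tested on simulated data. The simulated noise was independent between libraries, and none was made to stand apart in that fit. The simulation therefore does not cover the effect of a library like 2 h replicate 1.

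The members and gene lists were chosen with earlier results of these data known. Named by rule were the 10 largest rises and falls (called in both fits, at least 5 FPKM in the higher group, no overlap, a usual symbol), up to 4 called members of each list with the largest change (or 2 with the highest level where none was called), and a fixed panel. Other list members are named for their role and were chosen after their values were seen. The GC and length correction removed from each library a spline with 4 degrees of freedom in transcript GC content and length (GENCODE M21). Replicates are labelled as independent time courses; same-numbered 4 h and 2 h libraries correlated in their deviations at 0.444, 0.323 and 0.039, so no pairing was assumed. The alternatives covered scaling, pseudocount, filter, libraries left out, weights, trend and a replicate block.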

Additional observations from a re-analysis of the deposited data

How the results depend on the processing

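The number of calls depended on which libraries entered the fit, and each alternative run gave calls in both directions. Leaving out 1 of the 6 libraries at a time gave 1891 to 2359 calls, 968 to 1170 of them higher and 923 to 1239 lower, against 2501, 1266 and 1235. Fitting the 6 libraries alone gave 1330 calls (711 higher, 619 lower), and the same without 2 h replicate 1 gave 4886 (2315 and 2571). Leaving out that library and 3 others of the series that stand apart gave 5140 (2306 and 2834), and weighting libraries by their agreement gave 6475 (3019 and 3456). A filter at 5 FPKM left fewer genes to test and gave 1482 (797 and 685), and requiring a 2-fold difference gave 196 (127 and 69). Correction for GC content and length gave 3553 calls, and together with the replicate block 3617, of which 1881 were lower.

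The replicate block alone gave 2574 calls. The numbers were not taken as a pairing, since replicate 3 correlated at 0.039 and 4 h replicate 2 correlated better with 2 h replicate 3 (0.392) than with its own number.

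Rplp1, not called at −0.01, was the named gene that reversed: it was higher by 0.28 with the 6 libraries alone without 2 h replicate 1 and with the 4 libraries left out, and by 0.26 with library weights; the cause was not tested. Of the 120 genes named by rule, 6 lost their call without 2 h replicate 1 (Atf4, Rev1, Gnl3, Nop56, mt-Co1 and Uqcrc2), and 10 to 13 did without any 1 library of the 4 h group. Without any 1 of the other two 2 h libraries 11 or 12 did. Depth cannot be read from FPKM, so the precision of low genes rests on the spread between libraries, with a median SE of 0.129 on the log2 scale.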

Other observations

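A group of neighboring zinc finger genes was lower at 4 h; it was chosen after its values were seen, and so carries no test as a group. Of 17 tested Zfp genes between 145510759 and 147809788 on chromosome 4 (GRCm38), 9 were called lower and 0 higher in limma, and all 17 differences lay below 0, with a median of −0.57. Without 2 h replicate 1, 10 were lower and 0 higher, with a median of −0.87. The 254 other tested Zfp genes had 25 higher and 38 lower and a median of 0.01. These genes belong to a family of near-identical copies, and reads may have been shared among them in the counting.

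Mitochondrial tRNA genes, also chosen after their values were seen, went the other way. Of 18 tested, 6 were called higher and 0 lower in limma, with and without 2 h replicate 1, and all 18 differences lay above 0, with a median of 0.77. The largest called differences were those of mt-Tm (1.36), mt-Tp (1.22) and mt-Tq (1.20). The level of mt-Th was 14.2, 2.31 and 2.23 FPKM in 4 h replicates 1, 2 and 3, and mt-Ts2, mt-Tl2 and mt-Tk were likewise highest in replicate 1. After the GC and length correction 5 of the 18 were called higher and 2 differences lay below 0, and without 2 h replicate 1 as well 4 were called. The mitochondrially encoded mRNA genes had a median of −0.06 and 1 call of 13. Of the called tRNA genes, mt-Tq, mt-Tc, mt-Ty and mt-Tp lie on the minus strand and mt-Tl1 and mt-Tm on the plus strand. The mRNA gene called, mt-Co1, lies on the plus strand, so the mRNA median is no comparison within shared precursors. Poly(A) selection is not made to capture tRNA, so these values rest on short features and on fragments whose origin was not tested.

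Some genes outside the naming rule moved as far or further. Gm37795 (2.75) rose more than any gene described, and Gm49654 rose by 1.85. The lowest value of all tested genes was that of Gm13230 (−3.05), which was not called and was at 0, 0 and 18.8 FPKM at 4 h, against 14.3, 25.0 and 27.3 FPKM at 2 h. Commd5 was at −1.90 with all libraries and was not called without 2 h replicate 1 (limma, adjusted p = 0.0517).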
